A study of Homo sapiens with 52 samples.

Results

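The NF-kB subunits and target genes described here are 9 genes of the 78894 in the gene-level tables: the subunit genes NFKB1, NFKB2 and RELB, and 6 known target genes of the pathway, NFKBIA, TNFAIP3, TNFAIP2, BIRC3, TRAF1 and ICAM1. They were found by their gene names, each of which matched a single row. The rule used no measured value, but the genes were chosen with earlier results of these data known. Poly(A) RNA was profiled by bulk RNA-seq after knockdown of NRP1 (neuropilin-1, a transmembrane co-receptor that also has soluble forms) in 3 established breast cancer cell lines described as claudin-low: SUM159PT, MDA-MB-231 and HS578T. Each line received 6 treatments, which gave 18 groups and 52 samples. A non-targeting siRNA (siNT) or an siRNA against NRP1 (siNRP1#3 or siNRP1#5) was reverse transfected at 20 nM, and RNA was collected 72 h later. A non-targeting shRNA (shNT) or an shRNA against NRP1 (shNRP1#3 or shNRP1#5) was delivered by lentivirus with puromycin selection, and RNA was collected 48 h after seeding. The #3 sequences target the transmembrane form of NRP1 and the #5 sequences target the transmembrane and soluble forms. siNRP1#5 and shNRP1#5 have the same sequence, whereas siNRP1#3 and shNRP1#3 do not. Groups held 3 biological replicates except SUM159PT siNRP1#5 and HS578T shNRP1#3, which held 2. The shRNA replicates were consecutive passages of transduced cells, so their p-values measure the spread between passages. All cells came from the parental lines without any other genetic change named in the labels, and RNA levels were the only readout.

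NF-kB is a family of dimeric transcription factors. NFKB1 and NFKB2 encode precursors that are processed into DNA-binding subunits, of which the NFKB2 product pairs with RELB in the non-canonical pathway. In resting cells inhibitors such as the NFKBIA product (IkB-alpha) hold dimers in the cytoplasm, and many of the genes that NF-kB induces, NFKBIA and TNFAIP3 among them, feed back to switch the pathway off. In breast cancer cells the pathway is known for cytokine output, survival signalling and adhesion.

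In the windows below, read 5′ to 3′ in the direction of the gene on GRCh38.p14, capitals mark matches to the 10-base NF-kB consensus on either strand. They are shown because these members carry the consensus close upstream of a RefSeq transcription start.
NFKB1 chr4:102501285-102501329 (+ strand): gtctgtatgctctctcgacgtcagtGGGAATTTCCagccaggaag
NFKB2 chr10:102395504-102395563 (+ strand): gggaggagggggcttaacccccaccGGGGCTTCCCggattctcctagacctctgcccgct
NFKBIA chr14:35404796-35404855 (- strand): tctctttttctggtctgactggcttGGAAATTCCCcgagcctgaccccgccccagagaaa
TNFAIP3 chr6:137867167-137867213 (+ strand): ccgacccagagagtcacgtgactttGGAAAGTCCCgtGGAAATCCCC
BIRC3 chr11:102317260-102317319 (+ strand): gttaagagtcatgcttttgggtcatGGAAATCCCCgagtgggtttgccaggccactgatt
BIRC3 chr11:102317324-102317383 (+ strand): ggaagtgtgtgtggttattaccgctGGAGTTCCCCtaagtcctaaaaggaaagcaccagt

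RefSeq promoters (250 bases before to 50 after a start) were listed for 8 of the 9 members, with 13 promoters in all, of which 6 held a match. Matches lay in NFKB1 at positions -49 to -40 from the start, in NFKBIA at -81 to -72, as a pair in TNFAIP3 between -67 and -46, and in BIRC3 at -199 to -190 and -135 to -126. NFKB2 had 5 matches in 2 promoters, at -107 to -98, -106 to -97 and -78 to -69 from 1 start and at -176 to -167 and -21 to -12 from the other, of which only the match at -176, outside annotated exons, is shown above. No match was found in these windows for TNFAIP2, ICAM1 or TRAF1. Of all 35116 RefSeq promoters in the table, 11.3% held a match, and 9.96% held one upstream of the start. RELB was not in the table. A match is a description of the letters and not evidence of binding.

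**Figure D1:**
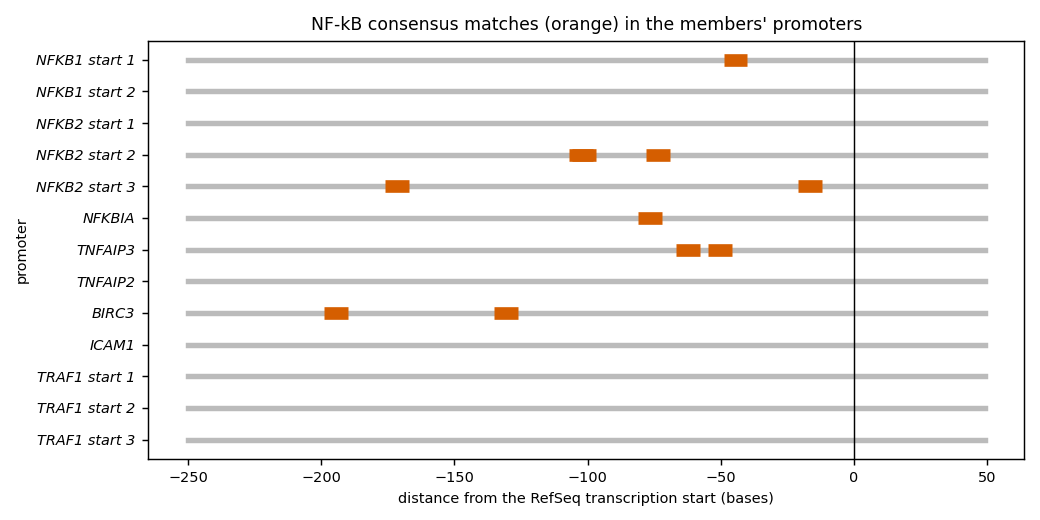
Positions of NF-kB consensus matches in the RefSeq promoters of the members, as distance in bases from the transcription start (x axis), 1 line per promoter. Matches lay between 12 and 199 bases upstream of the start in NFKB1, NFKB2, NFKBIA, TNFAIP3 and BIRC3, and TNFAIP2, ICAM1 and TRAF1 had none in the window.

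Total expected counts per sample ranged from 25310443 to 72003442, with a median of 44804505, and every member passed the filter on low counts in all 3 lines. NRP1 itself was called lower in 11 of the 12 knockdown comparisons, the exception being HS578T shNRP1#3 (log2 fold change -1.59, adjusted p = 0.069). In MDA-MB-231 siNRP1#3 the NRP1 counts fell by 0.70 on the log2 scale while its mean TPM was 28.5 against 28.8 in siNT. VIM, a mesenchymal marker, was at 1311 to 6093 TPM and CDH1 at no more than 3.33 TPM, but MDA-MB-231 carried 62.6 to 226 TPM of CLDN4, a claudin whose low expression is part of the definition of the claudin-low class. Of the immune markers, CD3E, MS4A1 and LYZ were at no more than 0.27 TPM, while PTPRC reached 13.1 TPM in SUM159PT and CD14 reached 23.1 TPM. Genes that mark MDA-MB-231 and are near 0 in HS578T controls were present in the 3 HS578T siNRP1#5 samples at 21.1%, 20.3% and 13.4% of their MDA-MB-231 control level, against 0.638% to 1.32% in HS578T siNT and 1.56% to 5.51% in HS578T siNRP1#3. HS578T siNRP1#5 also held SUM159PT marker RNA, at 1.05% to 6.77%. In SUM159PT and MDA-MB-231 samples the marker level of another line was at most 2.33%. The MDA-MB-231 share in HS578T rests on 9 marker genes. They were chosen as low in the HS578T NT controls, so the siNT and shNT values are bounded by the choice. With 59 markers chosen by their mean, shares were 13.3% to 24.8% in siNRP1#5, 2.57% to 7.42% in siNRP1#3 and 0.691% to 2.19% in siNT. The changes in HS578T siNRP1#5 samples against siNT are therefore also given after the reads assigned to other lines were subtracted. The subtraction took the level of each gene in the NT control of the other line with the same delivery.

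In the NT controls (siNT and shNT, 6 samples per line) most members were lowest in HS578T. TPM is scaled by transcript length, so levels can be set against each other between genes. NFKBIA had the highest mean of the members in SUM159PT, at 87.0 to 313 TPM (median 140.1), and in MDA-MB-231, at 117 to 205 TPM (median 161). In HS578T NFKBIA stood at 12.2 to 20.6 TPM (median 16.2) and NFKB2 led, at 25.8 to 67.2 TPM (median 52.7). By mean TPM the order in SUM159PT was NFKBIA, TNFAIP2, ICAM1, NFKB2, RELB, NFKB1, TNFAIP3, BIRC3 and TRAF1, and the ranges of neighbours overlapped at every step except between NFKB1 (32.3 to 37.0 TPM (median 34.9)) and TNFAIP3 (4.72 to 19.5 TPM (median 8.48)). In MDA-MB-231 the order was NFKBIA, ICAM1, TNFAIP2, NFKB2, RELB, NFKB1, BIRC3, TRAF1 and TNFAIP3, with a gap between NFKB2 (74.5 to 158 TPM (median 102)) and RELB (26.8 to 60.1 TPM (median 49.5)). In HS578T the order was NFKB2, RELB, NFKBIA, TNFAIP2, NFKB1, TNFAIP3, TRAF1, ICAM1 and BIRC3, with a gap between NFKBIA and TNFAIP2 (4.56 to 8.77 TPM (median 4.78)). The widest differences between lines were in ICAM1 and BIRC3. ICAM1, an adhesion receptor for leukocyte integrins, was at 131 to 206 TPM (median 140.1) in MDA-MB-231, 18.4 to 122 TPM (median 38.8) in SUM159PT and 0.24 to 4.66 TPM (median 1.53) in HS578T. BIRC3, a ubiquitin ligase that restrains cell death, was at 9.36 to 31.9 TPM (median 19.1), 1.11 to 9.13 TPM (median 2.38) and 0.21 to 0.35 TPM (median 0.32) in the same order. In both genes the HS578T controls lay below those of the other lines without overlap.

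By edgeR's quasi-likelihood test on counts over all 52 samples, 7 members were lower in HS578T than in MDA-MB-231 controls (70.2% of all genes were called, 35.4% as lower), and 7 were lower and TRAF1 higher in HS578T than in SUM159PT controls (63.5% called, 33.7% as lower and 29.8% as higher). Log2 differences from MDA-MB-231 included -5.99 ± 0.37 (adjusted p = 2.7e-17) for ICAM1, -5.43 ± 0.43 (adjusted p = 2.11e-14) for BIRC3, -3.76 ± 0.22 (adjusted p = 1.22e-18) for TNFAIP2 and -2.04 ± 0.12 (adjusted p = 3.81e-18) for NFKB1. TRAF1 was 1.13 ± 0.44 (adjusted p = 0.0241) against SUM159PT. Between SUM159PT and MDA-MB-231 controls 6 members were called (59.4% of all genes, 31.8% as higher and 27.6% as lower). NFKB1 (0.36 ± 0.12 (adjusted p = 0.00751)) and TNFAIP3 (0.90 ± 0.22 (adjusted p = 0.000468)) were higher in SUM159PT, whereas NFKB2, BIRC3, ICAM1 and TRAF1 were lower, TRAF1 with a log2 difference of -2.63 ± 0.45 (adjusted p = 4.17e-06). With 1 replicate number left out of every group at a time, NFKB1 (without replicate 3, adjusted p = 0.102) and TNFAIP3 (without replicate 2, adjusted p = 0.0534) lost their calls between SUM159PT and MDA-MB-231. Against HS578T, RELB lost its call in the MDA-MB-231 comparison without replicates 2 or 3 (adjusted p = 0.0714 to 0.0722). In the SUM159PT comparison RELB lost it without replicate 2 (adjusted p = 0.374), TNFAIP3 without replicates 1 or 2 (adjusted p = 0.0639 to 0.274) and TRAF1 without replicates 1 or 3 (adjusted p = 0.0697 to 0.449). The 6 of 9 members called between SUM159PT and MDA-MB-231 are close to the share of all genes. The 7 of 9 lower in HS578T stand above the 35.4% and 33.7% of all genes called as lower, in 9 genes that were chosen and not sampled.

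**Figure D2:**
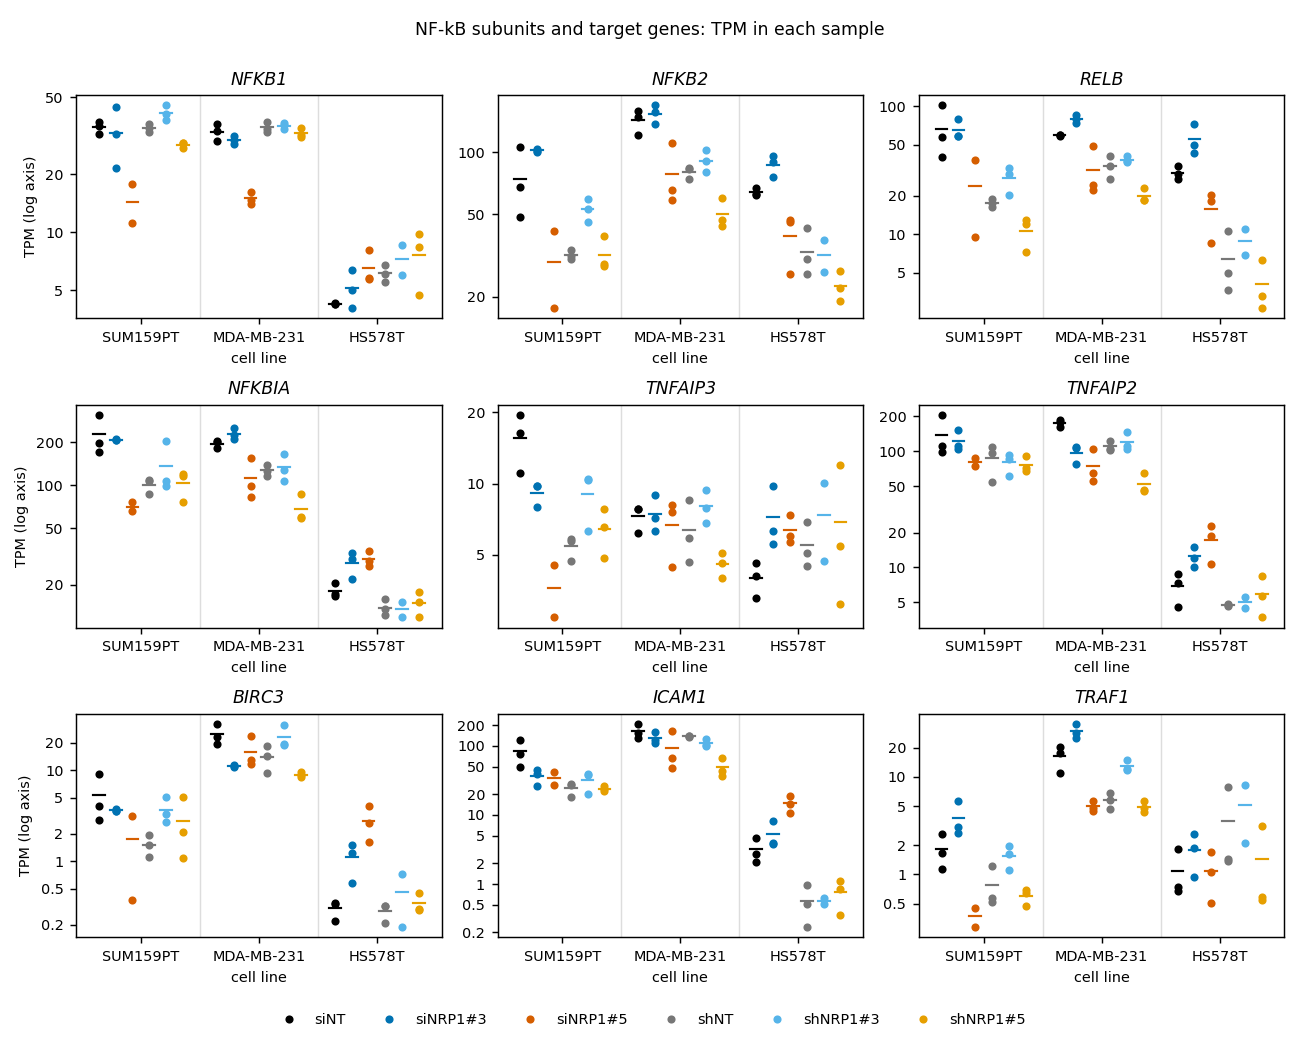
TPM of the 9 members in all 52 samples (log axis), by cell line and treatment, with 1 point per sample and a bar at the group mean. Most members sit lowest in HS578T, where BIRC3 controls lie between 0.21 and 0.35 TPM, and siNT samples lie above shNT for RELB in all 3 lines.

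Each knockdown group was compared with the NT control of its own delivery in the same line. Across the 12 comparisons, 25 of 108 tests of members were called at an adjusted p of 0.05 over all genes, 18 as lower and 7 as higher than the control. The share of all genes called ranged from 0.0356% in HS578T shNRP1#3 to 29.4% in MDA-MB-231 siNRP1#5, and is given below with each count. Of the 7 higher, 4 were in HS578T siNRP1#5, whose samples hold MDA-MB-231 RNA. The #3 and #5 groups of a delivery share their NT samples, so their results are not independent of each other. In MDA-MB-231, siNRP1#5 lowered 6 of the 9 members (29.4% of all genes were called, 14.9% as lower; median log2 fold change of the members -0.59, of all genes 0.01) and shNRP1#5 lowered 5 (20.7% called, 11.9% as lower; median log2 fold change of the members -0.59, of all genes 0.02). siNRP1#3 lowered 2 members and raised 1 (25.7% called, 14.3% as lower and 11.4% as higher; median log2 fold change of the members 0.07, of all genes -0.01), and shNRP1#3 raised 1 (3.65% called, 1.46% as higher; median log2 fold change of the members 0.16, of all genes 0.02). The siNRP1#5 count was 3 without siNRP1#5 replicate 2, siNT replicate 1 or siNT replicate 3, and the shNRP1#5 count was 1 without shNRP1#5 replicates 2 or 3, 2 without shNT replicate 1 and 3 without shNT replicate 3.

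In SUM159PT, siNRP1#5 lowered 4 members (17.9% of all genes called, 8.89% as lower; median log2 fold change of the members -1.14, of all genes 0.01), and all 9 log2 fold changes were below 0. Without siNRP1#5 replicate 3, which left a single sample in that group, 2 were called, and in a fit of only these 2 groups 0 were called. siNRP1#3 lowered 1 (8.66% called, 5.50% as lower; median log2 fold change of the members -0.18, of all genes -0.01), 2 with the replicate number as a block, 2 without siNT replicate 3 and 0 without siNRP1#3 replicates 1 or 3 or siNT replicate 2. With edgeR, 0 members were called for shNRP1#3 (1.40% of all genes called; 0 at unadjusted p below 0.05, 0 by DESeq2 and 0 by limma) and 0 for shNRP1#5 (5.94% called; 1 at unadjusted p below 0.05, 0 by DESeq2 and 0 by limma).

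In HS578T the called changes ran the other way. siNRP1#5 raised 4 members (18.7% of all genes called, 10.1% as higher; median log2 fold change of the members 0.72, of all genes 0.03), in the samples that hold MDA-MB-231 RNA, and 2 were called without siNRP1#5 replicate 1 or without siNT replicate 2. siNRP1#3 raised 1 (4.65% called, 2.31% as higher; median log2 fold change of the members 0.61, of all genes 0.03), and 0 when any of the 6 samples was left out. With edgeR, 0 members were called for shNRP1#3 (0.0356% called; 0 at unadjusted p below 0.05) and 0 for shNRP1#5 (0.946% called; 2 at unadjusted p below 0.05), and DESeq2 and limma called 0 in both.

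**Figure D3:**
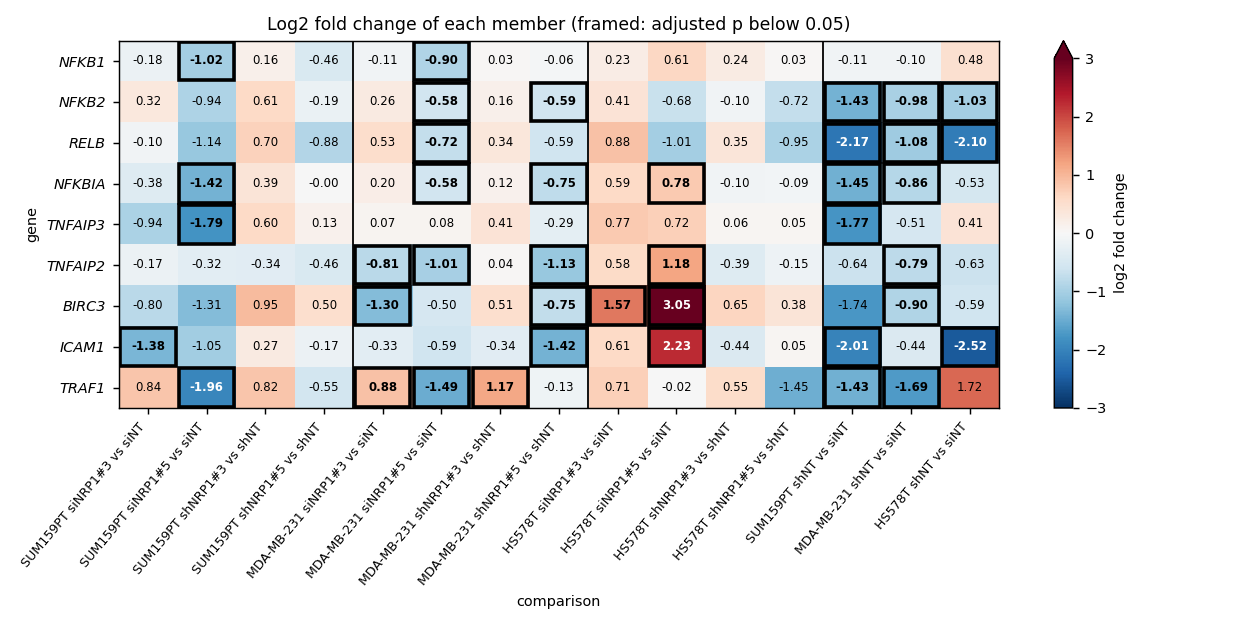
Log2 fold change of each member (rows) in the 12 knockdown comparisons against the NT control of the same delivery and line and, in the last 3 columns, in shNT against siNT, with called values framed. The 18 called decreases with knockdown lie in SUM159PT and MDA-MB-231, and 5 of the 7 called increases with knockdown lie in HS578T siRNA columns, whose siNRP1#5 samples hold RNA of MDA-MB-231.

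NFKB1 (chr4:102501330-102617302, GRCh38) fell with siNRP1#5 in both lines in which it is abundant. In MDA-MB-231 its TPM was 33.5, 36.5 and 29.5 in siNT and 16.2, 14.7 and 14.1 in siNRP1#5. All siNRP1#5 samples lay below all siNT samples (log2 fold change -0.90 ± 0.10 (SE), adjusted p = 2.5e-06), and the call held without any 1 of the 6 samples. In SUM159PT it was 32.3, 35.3 and 37.0 in siNT against 11.1 and 17.7 in siNRP1#5 (log2 fold change -1.02 ± 0.24 (SE), adjusted p = 0.00864), again without overlap. There the call was lost without siNRP1#5 replicate 2 (adjusted p = 0.0636). The shRNA of the same sequence gave 37.4, 34.4 and 33.0 TPM in shNT and 31.7, 34.9 and 31.0 in shNRP1#5 of MDA-MB-231, groups that overlapped and were not called apart (log2 fold change -0.06 ± 0.10 (SE), adjusted p = 0.727). In SUM159PT shNT stood at 34.5, 36.3 and 33.1 TPM and shNRP1#5 at 28.9, 27.4 and 29.1, which did not overlap but did not pass the test (log2 fold change -0.46 ± 0.20 (SE), adjusted p = 0.233). In HS578T NFKB1 lay between 4.04 and 9.80 TPM over all 17 samples, with no call.

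NFKB2 (chr10:102394110-102402524), which encodes the precursor processed in the non-canonical pathway, fell with both #5 reagents in MDA-MB-231. Its TPM was 148, 121 and 158 in siNT and 65.7, 58.8 and 111 in siNRP1#5 (log2 fold change -0.58 ± 0.18 (SE), adjusted p = 0.0213). It was 83.5, 74.5 and 82.9 in shNT and 59.7, 46.7 and 43.9 in shNRP1#5 (log2 fold change -0.59 ± 0.18 (SE), adjusted p = 0.0288). Neither pair of groups overlapped, although siNRP1#5 replicate 3 stood well above the other two. The siRNA call was lost without siNRP1#5 replicates 1 or 2 or siNT replicates 1 or 3 (adjusted p = 0.0551 to 0.121) and the shRNA call without shNRP1#5 replicates 2 or 3 or shNT replicates 1, 2 or 3 (adjusted p = 0.0539 to 0.125). In SUM159PT NFKB2 stood at 67.5, 105 and 48.8 TPM in siNT, 101, 104 and 101 in siNRP1#3 and 41.4 and 17.6 in siNRP1#5. The siNT samples spread widely, with replicate 2 the highest, and the siNRP1#5 difference from siNT was not called (log2 fold change -0.94 ± 0.39 (SE), adjusted p = 0.103).

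RELB (chr19:45001461-45038192), the partner of the NFKB2 product, was called in 1 knockdown comparison. In MDA-MB-231 it was at 58.1, 59.9 and 60.1 TPM in siNT and 24.1, 22.1 and 48.8 in siNRP1#5 (log2 fold change -0.72 ± 0.25 (SE), adjusted p = 0.0422). The groups did not overlap, and siNRP1#5 replicate 3 was the highest of its group. The call was lost without siNRP1#5 replicates 1 or 2 or siNT replicates 1, 2 or 3 (adjusted p = 0.0765 to 0.191, 1 sample left out at a time). siNRP1#3 samples of this line lay above every siNT sample, at 86.2, 73.7 and 80.2 TPM, with a difference that was not called (log2 fold change 0.53 ± 0.25 (SE), adjusted p = 0.136). shNRP1#5 samples, at 22.8, 18.5 and 18.6, lay below shNT, at 40.9, 26.8 and 34.0, and were not called either (log2 fold change -0.59 ± 0.26 (SE), adjusted p = 0.111).

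NFKBIA (chr14:35401079-35404749) encodes the inhibitor that NF-kB itself induces, and it was called lower in 3 comparisons. In SUM159PT it was at 199, 313 and 172 TPM in siNT and 65.6 and 76.0 in siNRP1#5 (log2 fold change -1.42 ± 0.38 (SE), adjusted p = 0.0166). In MDA-MB-231 it was at 201, 183 and 205 in siNT and 82.2, 99.7 and 156 in siNRP1#5 (log2 fold change -0.58 ± 0.21 (SE), adjusted p = 0.0461). With the shRNA it was at 139, 117 and 126 in shNT and 86.3, 59.4 and 59.8 in shNRP1#5 (log2 fold change -0.75 ± 0.21 (SE), adjusted p = 0.0168). No pair of these groups overlapped. The SUM159PT call was lost without siNRP1#5 replicates 2 or 3 or siNT replicate 2 (adjusted p = 0.0525 to 0.0756, 1 sample left out at a time). The MDA-MB-231 siRNA call was lost without siNRP1#5 replicates 1 or 2 or siNT replicates 1, 2 or 3 (adjusted p = 0.0689 to 0.211, 1 sample left out at a time). The shRNA call was lost without shNRP1#5 replicates 2 or 3 or shNT replicate 1 (adjusted p = 0.0557 to 0.0856, 1 sample left out at a time).

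TNFAIP3 (chr6:137867214-137883314), a ubiquitin-editing enzyme that damps the pathway, fell in SUM159PT with siNRP1#5. Its TPM was 16.3, 19.5 and 11.1 in siNT and 4.51 and 2.72 in siNRP1#5, with no overlap (log2 fold change -1.79 ± 0.37 (SE), adjusted p = 0.00455). The call held without any 1 of the 5 samples, where in 2 of these fits the lone siNRP1#5 sample was assumed to vary like the other groups, and it was lost in a fit of only these 2 groups (adjusted p = 0.106). siNRP1#3 lay between, at 9.80, 7.97 and 9.73 TPM, also below every siNT sample but not called (log2 fold change -0.94 ± 0.31 (SE), adjusted p = 0.0695). In MDA-MB-231 TNFAIP3 was at 7.85, 6.16 and 7.80 TPM in siNT and 7.56, 4.44 and 8.11 in siNRP1#5, which overlapped (log2 fold change 0.08 ± 0.21 (SE), adjusted p = 0.813). It was at 8.52, 4.68 and 5.89 in shNT and 5.10, 4.61 and 3.99 in shNRP1#5, which overlapped as well (log2 fold change -0.29 ± 0.21 (SE), adjusted p = 0.351). In SUM159PT shRNA samples it lay between 4.72 and 10.5 TPM, with no call.

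BIRC3 (chr11:102317484-102339403) was called lower in MDA-MB-231 and higher in HS578T siRNA samples, where neither rise was called after subtraction of reads of other lines. In MDA-MB-231 it fell with siNRP1#3, from 31.9, 19.5 and 23.3 TPM in siNT to 11.1, 10.7 and 11.5, a tight group below every control (log2 fold change -1.30 ± 0.26 (SE), adjusted p = 0.00142), and the call held without any 1 of the 6 samples. siNRP1#5 gave 23.4, 11.6 and 12.9 TPM, which overlapped siNT and was not called (log2 fold change -0.50 ± 0.26 (SE), adjusted p = 0.16). shNRP1#5 gave 8.89, 9.53 and 8.34 against 18.6, 9.36 and 14.2 in shNT, overlapping, with an adjusted p near the threshold (log2 fold change -0.75 ± 0.26 (SE), adjusted p = 0.048). That call was lost without shNRP1#5 replicates 1, 2 or 3 or shNT replicates 1 or 3 (adjusted p = 0.094 to 0.243, 1 sample left out at a time). In SUM159PT BIRC3 ranged from 0.37 to 9.13 TPM over the 17 samples and was not called in any knockdown comparison. The HS578T values are given further on with the other genes of those samples.

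TRAF1 (chr9:120902393-120929173), an adaptor of TNF receptor signalling, moved in opposite directions with the #3 and #5 sequences in MDA-MB-231. Its TPM was 20.4, 17.7 and 11.0 in siNT, 34.7, 25.0 and 28.2 in siNRP1#3 and 4.83, 4.44 and 5.66 in siNRP1#5. Every siNRP1#3 sample lay above and every siNRP1#5 sample below the controls. It rose with siNRP1#3 (log2 fold change 0.88 ± 0.20 (SE), adjusted p = 0.00397) and fell with siNRP1#5 (log2 fold change -1.49 ± 0.21 (SE), adjusted p = 2.72e-05). With shRNA it was at 6.76, 4.72 and 5.73 TPM in shNT, 14.8, 12.0 and 11.9 in shNRP1#3 and 5.70, 4.75 and 4.36 in shNRP1#5. It rose with shNRP1#3 without overlap (log2 fold change 1.17 ± 0.21 (SE), adjusted p = 0.00278), whereas shNRP1#5 overlapped shNT and was not called (log2 fold change -0.13 ± 0.21 (SE), adjusted p = 0.693). These 3 calls in MDA-MB-231 held without any 1 sample. In SUM159PT, where TRAF1 is low, it was at 1.14, 2.61 and 1.67 TPM in siNT, 2.63, 3.06 and 5.61 in siNRP1#3 and 0.45 and 0.29 in siNRP1#5. The siNRP1#5 samples lay below the controls (log2 fold change -1.96 ± 0.51 (SE), adjusted p = 0.0148) and the siNRP1#3 samples, all above them, were not called apart from siNT (log2 fold change 0.84 ± 0.42 (SE), adjusted p = 0.224). The siNRP1#5 call was lost without siNRP1#5 replicate 3 (adjusted p = 0.112).

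TNFAIP2 (chr14:103121476-103137439), a TNF-induced protein linked to membrane protrusions, fell in 3 of the 4 knockdown comparisons of MDA-MB-231. Its TPM was 185, 161 and 178 in siNT, 106, 77.2 and 109.8 in siNRP1#3 and 65.1, 55.8 and 106 in siNRP1#5. Both siNRP1 groups lay below every control, siNRP1#3 with a log2 fold change -0.81 ± 0.22 (SE), adjusted p = 0.0123, and siNRP1#5 with a log2 fold change -1.01 ± 0.22 (SE), adjusted p = 0.0023. The siNRP1#3 call was lost without siNRP1#3 replicate 2 (adjusted p = 0.0589). With shRNA it was at 124, 103 and 105 in shNT and 65.2, 46.9 and 45.9 in shNRP1#5, again without overlap (log2 fold change -1.13 ± 0.22 (SE), adjusted p = 0.00201). The shNRP1#3 samples, at 147, 112 and 105, overlapped shNT (log2 fold change 0.04 ± 0.22 (SE), adjusted p = 0.958). The calls for both #5 reagents held without any 1 sample. In SUM159PT it ranged from 54.6 to 207 TPM and was not called.

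ICAM1 (chr19:10271093-10286615) fell in SUM159PT with siNRP1#3, from 77.2, 122 and 49.5 TPM in siNT to 26.7, 38.9 and 44.4 (log2 fold change -1.38 ± 0.35 (SE), adjusted p = 0.0233). It was the 1 member called there. siNRP1#5 samples stood at a similar level, 27.1 and 42.0 TPM, and did not pass the test (log2 fold change -1.05 ± 0.40 (SE), adjusted p = 0.0793). The call was lost without siNRP1#3 replicates 1 or 3 or siNT replicate 2 (adjusted p = 0.0643 to 0.124, 1 sample left out at a time). In MDA-MB-231 ICAM1 was at 141, 135 and 139 TPM in shNT and 67.1, 43.9 and 36.2 in shNRP1#5, without overlap (log2 fold change -1.42 ± 0.37 (SE), adjusted p = 0.0143). That call was lost without shNRP1#5 replicates 2 or 3 (adjusted p = 0.0622 to 0.0682, 1 sample left out at a time). The siRNA of the same sequence gave 65.8, 47.3 and 165 TPM against 153, 131 and 206 in siNT. Its replicate 3 lay among the controls and the other two lay far below, and the difference was not called (log2 fold change -0.59 ± 0.36 (SE), adjusted p = 0.246).

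The #5 and #3 groups were compared directly within each delivery. In MDA-MB-231 siRNA samples 5 members were lower and BIRC3 higher with siNRP1#5 than with siNRP1#3 (39.0% of all genes were called, 18.9% as lower and 20.0% as higher). The log2 differences were -2.36 ± 0.21 (adjusted p = 9.87e-08) for TRAF1, -1.25 ± 0.26 (adjusted p = 0.000902) for RELB, -0.84 ± 0.18 (adjusted p = 0.00123) for NFKB2, -0.79 ± 0.10 (adjusted p = 5.85e-06) for NFKB1 and -0.78 ± 0.21 (adjusted p = 0.0068) for NFKBIA, and each of these held without any 1 sample. BIRC3 differed by 0.81 ± 0.26 (adjusted p = 0.0201), a call that was lost without siNRP1#3 replicates 1 or 3 or siNRP1#5 replicate 1 (adjusted p = 0.0503 to 0.135). In the shRNA samples of this line 7 members were lower with shNRP1#5 (14.2% called, 8.24% as lower) and 3 were called without shNRP1#3 replicate 1 or shNRP1#5 replicates 2 or 3. The differences for TRAF1 (-1.30 ± 0.21 (adjusted p = 0.000501)), BIRC3 (-1.26 ± 0.26 (adjusted p = 0.0045)) and TNFAIP2 (-1.16 ± 0.22 (adjusted p = 0.00261)) held without any 1 sample. The calls for NFKB2, RELB and NFKBIA were lost without shNRP1#3 replicate 1 or shNRP1#5 replicates 2 or 3 (adjusted p = 0.056 to 0.0992), and that for TNFAIP3 without shNRP1#3 replicates 1, 2 or 3 or shNRP1#5 replicates 2 or 3 (adjusted p = 0.0525 to 0.16). BIRC3 was thus higher with #5 than #3 by siRNA and lower by shRNA, where the #3 reagents are different sequences.

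In SUM159PT 4 members were lower with siNRP1#5 than siNRP1#3 (29.7% of all genes called, 13.7% as lower). The log2 differences were -2.80 ± 0.53 (adjusted p = 0.00121) for TRAF1, -1.26 ± 0.39 (adjusted p = 0.0246) for NFKB2, -1.03 ± 0.37 (adjusted p = 0.0438) for NFKBIA and -0.84 ± 0.23 (adjusted p = 0.0143) for NFKB1. The NFKB2 call was lost without siNRP1#3 replicates 1 or 2 or siNRP1#5 replicate 3 (adjusted p = 0.0541 to 0.213, 1 sample left out at a time). The NFKB1 call was lost without siNRP1#3 replicate 3 or siNRP1#5 replicate 2 (adjusted p = 0.0512 to 0.123, 1 sample left out at a time). The NFKBIA call was lost without siNRP1#3 replicates 1, 2 or 3 or siNRP1#5 replicates 2 or 3 (adjusted p = 0.0547 to 0.151, 1 sample left out at a time). The TRAF1 call held without any 1 sample, and 2 members were called without siNRP1#5 replicate 3 or without any 1 of the siNRP1#3 replicates. In the shRNA samples all 9 differences were below 0 and edgeR called 0 members (8.71% of all genes called; 4 at unadjusted p below 0.05, 2 by DESeq2). In HS578T siRNA samples NFKB2 (-1.09 ± 0.29 (adjusted p = 0.0181)) and RELB (-1.89 ± 0.44 (adjusted p = 0.00894)) were lower, and BIRC3 (1.48 ± 0.41 (adjusted p = 0.0213)) and ICAM1 (1.63 ± 0.48 (adjusted p = 0.027)) higher, with siNRP1#5 (18.1% called, 8.92% as lower and 9.21% as higher). These counts were 0 without siNRP1#3 replicate 1 and 2 without siNRP1#3 replicate 2 or siNRP1#5 replicate 1. The NFKB2 call was lost without siNRP1#3 replicate 1 or siNRP1#5 replicates 2 or 3 (adjusted p = 0.0553 to 0.0922, 1 sample left out at a time). The RELB call was lost without siNRP1#3 replicate 1 (adjusted p = 0.0555). The BIRC3 call was lost without siNRP1#3 replicates 1 or 2 or siNRP1#5 replicate 1 (adjusted p = 0.0584 to 0.105, 1 sample left out at a time). The ICAM1 call was lost without siNRP1#3 replicates 1 or 2 or siNRP1#5 replicate 1 (adjusted p = 0.0846 to 0.118, 1 sample left out at a time). BIRC3 and ICAM1 turned negative when reads of other lines were subtracted, which set the siNRP1#5 counts of ICAM1 to 0 in all 3 samples and those of BIRC3 to 0 in 2. In HS578T shRNA samples edgeR called 0 members (0.544% called; 2 at unadjusted p below 0.05, 0 by DESeq2).

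**Figure D4:**
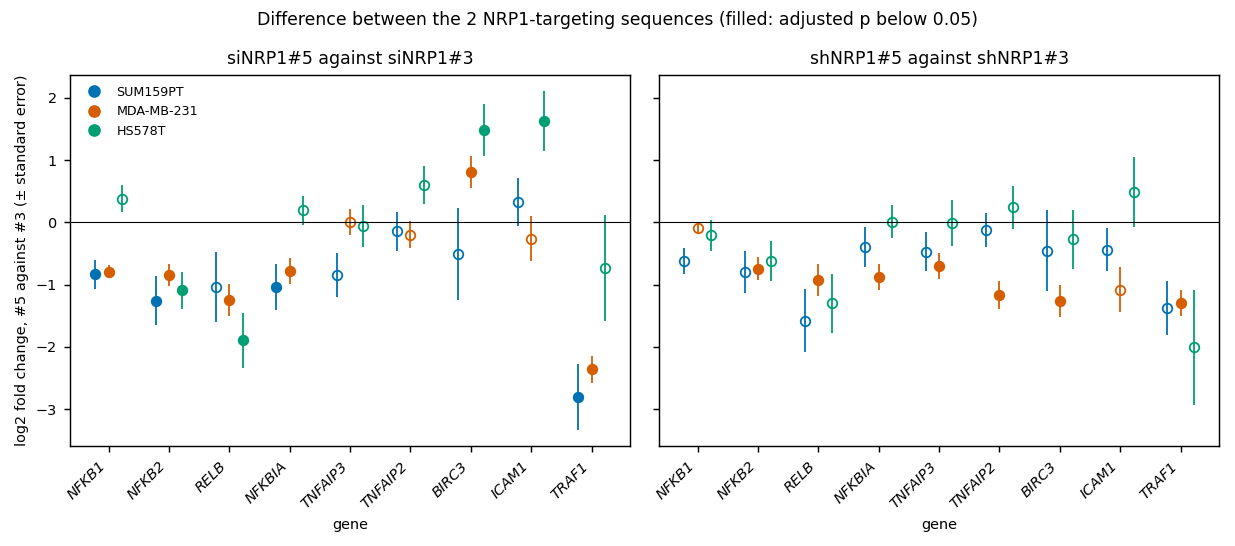
Log2 difference of each member between the #5 and #3 groups of the same delivery and line, with bars of 1 SE on each side and called values filled. TRAF1 is lower with #5 in MDA-MB-231 by both deliveries and in SUM159PT by siRNA, and the differences in SUM159PT shRNA all lie below 0 without a call.

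The same #5 sequence was used in both deliveries, so its change against the matched NT control was compared between siRNA and shRNA. In MDA-MB-231 the change with siNRP1#5 was lower for NFKB1 (-0.84 ± 0.14 (adjusted p = 0.000321)) and TRAF1 (-1.35 ± 0.29 (adjusted p = 0.00243)), both calls holding without any 1 sample (23.7% of all genes called, 11.4% as lower). NRP1 itself fell further with siNRP1#5 than with shNRP1#5 in this line, by a log2 difference of -3.83. In SUM159PT TNFAIP3 was the member called (-1.92 ± 0.47 (adjusted p = 0.0438); 2.51% called, 1.54% as lower). It was not called without shNRP1#5 replicates 1 or 2, shNT replicates 1, 2 or 3, siNRP1#5 replicate 3 or siNT replicates 1 or 2 (adjusted p = 0.0556 to 0.103, 1 sample left out at a time). The count of members was 0 in each of these and 3 without siNRP1#5 replicate 2. In HS578T BIRC3 was called (2.68 ± 0.61 (adjusted p = 0.0476); 0.854% called, 0.692% as higher). It was not called without shNRP1#5 replicates 1, 2 or 3, shNT replicates 1 or 2, siNRP1#5 replicates 1 or 2 or siNT replicates 1, 2 or 3 (adjusted p = 0.0584 to 0.134, 1 sample left out at a time). After subtraction of reads of other lines BIRC3 was at 0.24 (adjusted p = 0.972), or -1.94 (adjusted p = 0.642) with marker genes chosen by their mean. Dose, time, selection and depth of knockdown differ between the deliveries and cannot be told apart here.

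Several of the members differed between the NT controls themselves. Compared with siNT, 6 members were lower in shNT of SUM159PT (14.4% of all genes called, 8.45% as lower; median log2 fold change of the members -1.45, of all genes -0.03), 6 in MDA-MB-231 (20.6% called, 9.85% as lower; median log2 fold change of the members -0.86, of all genes -0.01) and 3 in HS578T (17.9% called, 8.80% as lower; median log2 fold change of the members -0.59, of all genes -0.00). None was called higher in any line. NFKB2 and RELB were lower in shNT in all 3 lines. RELB was at 57.9, 102 and 39.8 TPM in siNT and 17.5, 18.9 and 16.4 in shNT of SUM159PT (log2 fold change -2.17 ± 0.51 (SE), adjusted p = 0.0145). It was at 34.0, 27.2 and 29.4 and 10.6, 4.95 and 3.67 in HS578T (log2 fold change -2.10 ± 0.45 (SE), adjusted p = 0.00525), and its difference in MDA-MB-231 was -1.08 ± 0.26 (adjusted p = 0.00642). In each line the shNT samples all lay below the siNT samples. For NFKB2 the differences were -1.43 ± 0.34 (adjusted p = 0.0152) in SUM159PT, -0.98 ± 0.18 (adjusted p = 0.00106) in MDA-MB-231 and -1.03 ± 0.29 (adjusted p = 0.024) in HS578T. NFKBIA was lower in SUM159PT (-1.45 ± 0.33 (adjusted p = 0.0115)) and MDA-MB-231 (-0.86 ± 0.21 (adjusted p = 0.00753)), as was TRAF1 (-1.43 ± 0.43 (adjusted p = 0.0341) and -1.69 ± 0.21 (adjusted p = 2.42e-05)). ICAM1 was lower in SUM159PT (-2.01 ± 0.36 (adjusted p = 0.00461)) and HS578T (-2.52 ± 0.51 (adjusted p = 0.00381)), TNFAIP3 in SUM159PT (-1.77 ± 0.32 (adjusted p = 0.00453)), and TNFAIP2 (-0.79 ± 0.22 (adjusted p = 0.0172)) and BIRC3 (-0.90 ± 0.26 (adjusted p = 0.019)) in MDA-MB-231. In SUM159PT the count was 2 without shNT replicate 1 and 3 without shNT replicate 3 or siNT replicate 2, and RELB and NFKB2 lost their calls in each of these. TNFAIP3 and ICAM1 held throughout. The NFKBIA call was lost without shNT replicates 1 or 3 (adjusted p = 0.0503 to 0.0513, 1 sample left out at a time). The TRAF1 call was lost without shNT replicates 1 or 2 or siNT replicate 2 (adjusted p = 0.0968 to 0.146, 1 sample left out at a time). In HS578T the NFKB2 call was lost without shNT replicates 2 or 3 or siNT replicates 1 or 2 (adjusted p = 0.0563 to 0.117). In MDA-MB-231 TNFAIP2 lost its call without shNT replicates 2 or 3 and BIRC3 without shNT replicates 2 or 3 or siNT replicate 1 (adjusted p = 0.0634 to 0.101). Delivery, selection and time of collection all differ between siNT and shNT and cannot be told apart. HS578T siNT held 0.638% to 1.32% of MDA-MB-231 marker level against no more than 0.254% in shNT, by markers chosen as low in both. The alternatives run for the HS578T ICAM1 difference included subtraction of reads of other lines. Across all alternatives its log2 fold change ranged from -3.11 to -2.08, and the call was lost in 1 of them. It held without any 1 sample. The part of this RNA in the difference was not estimated.

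The change with siNRP1#5 differed between the 3 lines for 6 members by an F test on all 52 samples (18.2% of all genes called), which were NFKB1, NFKBIA, TNFAIP3, TNFAIP2, BIRC3 and ICAM1 (adjusted p = 2.84e-06 to 0.000502). The call was lost for TNFAIP2 without replicate 1 (adjusted p = 0.0707) and for ICAM1 without replicate 2 of every group (adjusted p = 0.101). In each, HS578T had a positive log2 fold change. For NFKB1 it was 0.61, against -1.02 in SUM159PT and -0.90 in MDA-MB-231. For TNFAIP3 the 3 values were 0.72, -1.79 and 0.08 in the same order. After subtraction of reads of other lines NFKB1 (adjusted p = 0.775), NFKBIA (adjusted p = 0.751) and BIRC3 (adjusted p = 0.496) lost their calls and TNFAIP3 kept its call (adjusted p = 0.000802), while the HS578T siNRP1#5 counts of TNFAIP2 and ICAM1 were then 0. With HS578T siNRP1#5 left out, SUM159PT and MDA-MB-231 differed in the change of TNFAIP3 (log2 difference -1.87 ± 0.48, adjusted p = 0.0323), with 405 of 23400 genes called. No other member was called, with unadjusted p below 0.05 for NFKBIA as well (0.0449). For siNRP1#3 the test called TNFAIP3 (adjusted p = 0.0427) and BIRC3 (adjusted p = 0.0333), with 3.42% of all genes called, and 0 members without replicate 1 or replicate 2 of every group or after subtraction of reads of other lines. BIRC3 lost its call without replicate 3 as well (adjusted p = 0.0673). With edgeR 0 members were called for shNRP1#3 (0.747% called; 0 at unadjusted p below 0.05, 0 by DESeq2) and 0 for shNRP1#5 (3.81% called; 2 at unadjusted p below 0.05, 0 by DESeq2).

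The 4 members that rose in HS578T siNRP1#5 were called lower in HS578T than in MDA-MB-231 controls. So were NFKB1, RELB and TRAF1, which were not called as risen. BIRC3 was at 0.34, 0.35 and 0.22 TPM in siNT and 4.08, 2.62 and 1.64 in siNRP1#5 (log2 fold change 3.05 ± 0.44 (SE), adjusted p = 0.000404). ICAM1 was at 2.74, 2.10 and 4.66 and 18.8, 14.6 and 10.5 (log2 fold change 2.23 ± 0.49 (SE), adjusted p = 0.00527), TNFAIP2 rose by 1.18 ± 0.31 (adjusted p = 0.0143) and NFKBIA by 0.78 ± 0.23 (adjusted p = 0.0286). In each of the 4 all siNRP1#5 samples lay above all siNT samples. The TNFAIP2 call was lost without siNRP1#5 replicate 1 or siNT replicate 2 (adjusted p = 0.053 to 0.0741, 1 sample left out at a time). The NFKBIA call was lost without siNRP1#5 replicates 1 or 3 or siNT replicates 1, 2 or 3 (adjusted p = 0.051 to 0.114, 1 sample left out at a time). Counts scaled to library size (CPM) show how much RNA at the MDA-MB-231 marker share would bring, taking the MDA-MB-231 siNT level of each gene. For ICAM1 replicates 1 to 3 measured 64.4, 39.2 and 36.7 CPM, and the share would bring 64.7, 62.2 and 41.1. For BIRC3 they measured 14.6, 8.29 and 6.59 and the share would bring 11.9, 11.5 and 7.56. For TNFAIP2 they measured 56.2, 51.0 and 34.5 against 62.1, 59.8 and 39.4. NFKBIA was above the amount brought in each sample, at 53.6, 37.2 and 41.1 against 35.1, 33.8 and 22.3. TRAF1, which was not called, measured 5.53, 6.49 and 2.60 against 9.57, 9.21 and 6.07. With shares from the larger marker set and the MDA-MB-231 siNRP1#5 level, the amounts brought were lower and stayed below the measured values in every sample. They were 50.0, 36.5 and 26.7 for ICAM1, 9.81, 7.17 and 5.24 for BIRC3, 35.9, 26.3 and 19.2 for TNFAIP2 and 27.4, 20.0 and 14.6 for NFKBIA. The measured values also hold RNA of HS578T itself. Its siNT means were 9.94 CPM for ICAM1, 1.18 for BIRC3, 20.8 for TNFAIP2 and 25.6 for NFKBIA. An amount brought that is below the measured value is therefore no measure of a rise, and the 2 sources together were not tested against it.

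After subtraction the counts of TNFAIP2, ICAM1 and TRAF1 were 0 in all 3 HS578T siNRP1#5 samples, so their fitted folds are no bound and their direction is set by the subtraction. NFKBIA, at 0 counts in replicate 2, had a log2 fold change of -0.89 ± 0.86 (adjusted p = 0.512) and BIRC3, at 0 in replicates 2 and 3, of 0.68 ± 1.13 (adjusted p = 0.715), neither called. With marker genes chosen by their mean, an alternative added after the data were seen, BIRC3 was -1.55 ± 1.21 (adjusted p = 0.411). NFKB2 and RELB were called lower after subtraction and not before it. Subtraction can only remove counts and took all those of TNFAIP2, ICAM1 and TRAF1, and its part in these calls was not tested. NFKB2, at 67.2, 63.0 and 62.4 TPM in siNT and 45.8, 46.9 and 25.6 in siNRP1#5, was -0.68 ± 0.29 (adjusted p = 0.115) as measured and -1.05 ± 0.31 (adjusted p = 0.0351) after subtraction. RELB, at 34.0, 27.2 and 29.4 TPM and 20.2, 18.1 and 8.52, was -1.01 ± 0.43 (adjusted p = 0.112) and -1.70 ± 0.50 (adjusted p = 0.0316). All siNRP1#5 samples of both genes lay below the controls in the values as deposited. NFKB1 turned from 0.61 as measured to -0.76 ± 0.26 (adjusted p = 0.0602) after subtraction, which was not called. With marker genes chosen by their mean it was called lower (-1.04 ± 0.31, adjusted p = 0.0343). Both rules subtracted at the MDA-MB-231 siNT level, which was 58.8 CPM for NFKB1, 175 for NFKB2 and 60.6 for RELB. In MDA-MB-231 siNRP1#5 these genes were at 31.0, 116 and 36.6 CPM. The values of the 3 genes after subtraction depend on this choice, and subtraction at the siNRP1#5 level was not tested. TNFAIP3 moved little with the subtraction, at 0.72 ± 0.34 (adjusted p = 0.153) as measured and 0.83 ± 0.35 (adjusted p = 0.121) after it, neither of which was called. BIRC3 with siNRP1#3, at 0.58, 1.24 and 1.52 TPM, was called as measured (1.57 ± 0.43 (adjusted p = 0.0449)) and not after subtraction (1.32 ± 1.12 (adjusted p = 0.594)) nor without any 1 of the 6 samples (adjusted p = 0.0688 to 0.142).

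**Figure D5:**
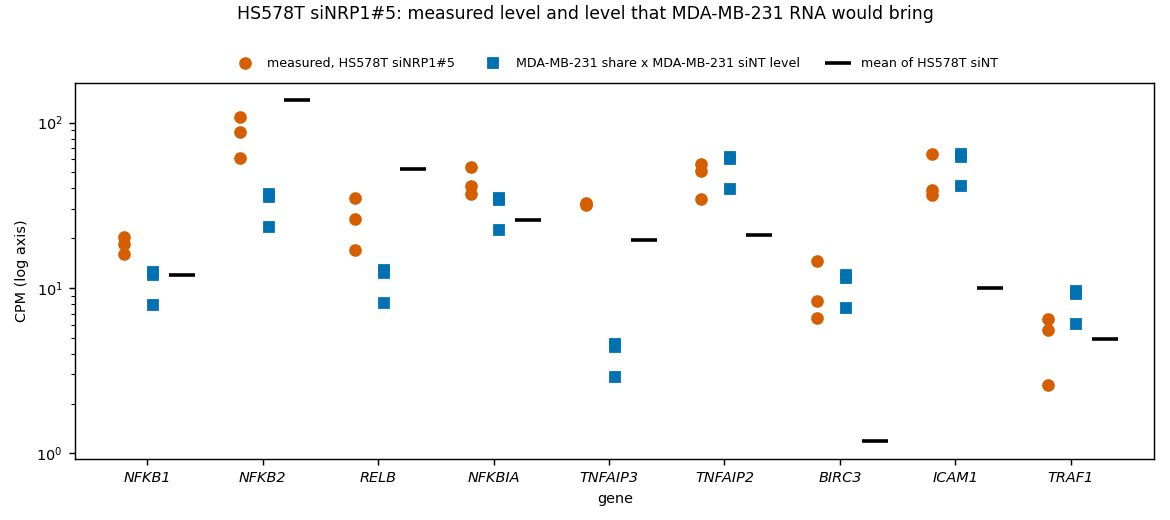
CPM (log axis) of each member measured in the 3 HS578T siNRP1#5 samples (circles) beside the CPM that the MDA-MB-231 marker share of each sample would bring (squares) and the mean of HS578T siNT (bar). Taken at the MDA-MB-231 siNT level, the amount brought is close to or above the amount measured for TNFAIP2, ICAM1, BIRC3 and TRAF1 and below it for NFKB1, NFKB2, RELB, NFKBIA and TNFAIP3. The measured amount also holds RNA of HS578T itself.

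Around the members, 61 other genes of the pathway were listed in 5 groups: the other subunits (RELA and REL), 9 inhibitors and regulators, 14 kinases and adaptors, 15 ligands and receptors and 21 other target genes. These lists were also chosen with earlier results of these data known. With siNRP1#5, 12 of 60 tested fell and 2 rose in SUM159PT (8.89% of all genes fell), 13 of 59 fell and 4 rose in MDA-MB-231 (14.9% of all genes fell), and 3 of 58 fell and 18 rose in HS578T (10.1% of all genes rose). With shNRP1#5 the counts, in the same order of lines (5.94%, 20.7% and 0.946% of all genes called), were 2 lower and 1 higher, 17 lower and 5 higher, and 1 lower and 0 higher. With siNRP1#3 (8.66%, 25.7% and 4.65% of all genes called) they were 6 lower and 0 higher, 12 lower and 3 higher, and 2 lower and 8 higher. With shNRP1#3 they were 0 in SUM159PT (1.40% called) and HS578T (0.0356% called) and 1 lower in MDA-MB-231 (3.65% called). RELA, the main activating subunit of the canonical pathway, fell with shNRP1#5 in SUM159PT (-1.38 ± 0.21 (adjusted p = 0.000866)), HS578T (-0.88 ± 0.18 (adjusted p = 0.0317)) and MDA-MB-231 (-0.39 ± 0.12 (adjusted p = 0.0302)), and with siNRP1#5 in MDA-MB-231 (-1.02 ± 0.12 (adjusted p = 5.34e-06)) and HS578T (-0.57 ± 0.18 (adjusted p = 0.0357)). The MDA-MB-231 values and the HS578T siRNA value were picked out after they were seen. In SUM159PT siNRP1#5 RELA was -0.56 ± 0.23 (adjusted p = 0.104) and was not called. REL was not called in any of the 12 knockdown comparisons.

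Among inhibitors and regulators, 3 of 9 fell and 2 rose with shNRP1#5 in MDA-MB-231 (20.7% of all genes called). With siNRP1#5, 2 fell and 1 rose in SUM159PT (17.9% called), and 2 rose in HS578T (18.7% called, 10.1% as higher). NFKBIB, an inhibitor related to NFKBIA, rose in SUM159PT (1.26 ± 0.30 (adjusted p = 0.0104)), where NFKBIA fell. Of the 14 kinases and adaptors, 3 were lower in SUM159PT siNRP1#5 (8.89% of all genes fell). MAP3K14, the kinase of the non-canonical pathway, rose with shNRP1#5 in MDA-MB-231 (0.71 ± 0.18 (adjusted p = 0.00858)). Of the 15 ligands and receptors, 7 fell and 0 rose with siNRP1#3 (14.3% of all genes fell), 6 fell and 2 rose with shNRP1#5 (11.9% fell) and 2 fell and 3 rose with siNRP1#5 (29.4% called) in MDA-MB-231. Those that fell with both of the first included TNFSF10, the death receptor ligand TRAIL (-1.64 ± 0.37 (adjusted p = 0.00464) and -2.98 ± 0.39 (adjusted p = 0.000124)). LTB, a ligand of the non-canonical pathway, fell with shNRP1#5 in MDA-MB-231 (-2.13 ± 0.46 (adjusted p = 0.00455)) and with siNRP1#3 in SUM159PT (-2.87 ± 0.77 (adjusted p = 0.0302)). In HS578T 7 of the 15 rose with siNRP1#5 (10.1% of all genes rose), and IL1B, an activating cytokine, rose with siNRP1#3 (5.25 ± 0.63 (adjusted p = 0.000253)).

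Of the other target genes, 9 of 19 tested fell and 1 rose with siNRP1#5 in MDA-MB-231 (14.9% of all genes fell), and 5 of 20 fell and 1 rose in SUM159PT (8.89% fell). The chemokine genes CXCL1 (-2.43 ± 0.58 (adjusted p = 0.00641)) and CXCL8 (-2.87 ± 0.57 (adjusted p = 0.00185)) were among those that fell in MDA-MB-231. The target gene that rose in both lines was MMP9, a matrix metalloproteinase (3.74 ± 0.44 (adjusted p = 1.16e-05) in MDA-MB-231 and 3.17 ± 0.75 (adjusted p = 0.00994) in SUM159PT), and it rose with shNRP1#5 in SUM159PT as well (3.78 ± 0.83 (adjusted p = 0.0121)) but fell there with siNRP1#3 (-3.27 ± 0.92 (adjusted p = 0.0362)). In MDA-MB-231 its mean TPM was 1.68 ± 0.95 (SD, n = 3) in siNT and 19.1 ± 9.06 (SD, n = 3) in siNRP1#5, while in SUM159PT it stayed at or below 1.95 TPM. MMP9 thus moved against the 6 members that fell in the same MDA-MB-231 samples. CCL2, a monocyte chemokine, fell with both #3 reagents in MDA-MB-231 (-1.94 ± 0.33 (adjusted p = 0.000264) and -2.05 ± 0.35 (adjusted p = 0.00222)). In HS578T 8 of 18 target genes rose with siNRP1#5 (10.1% of all genes rose) and 5 with siNRP1#3 (2.31% rose), of which PTGS2 had the largest change (3.72 ± 0.47 (adjusted p = 0.000391)). The part of other lines' RNA in the HS578T values of these lists was not tested. Between the NT controls 14 of 20 target genes were lower in shNT than siNT in SUM159PT (8.45% of all genes) and 12 of 19 in MDA-MB-231 (9.85%), CCL20 (-5.99 ± 1.25 (adjusted p = 0.00899) and -4.34 ± 0.58 (adjusted p = 5.73e-05)) among them. In HS578T 2 of 18 were lower, near the share of all genes (8.80%).

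Likeness between genes was measured as Pearson's r over the 18 group means of log2 CPM, with the mean of each line subtracted, among 23416 genes. The points share samples and lines, so these are descriptions. The HS578T siNRP1#5 mean, which holds MDA-MB-231 RNA, is 1 of the points and the highest HS578T group for ICAM1, BIRC3, TNFAIP2 and NFKBIA. NFKB2 and RELB were the closest pair of members, each the gene most like the other (r = 0.967), whereas NFKB1 and NFKB2 had an r of 0.01. The genes most like NFKB1 were TRIM38 (r = 0.925), HSPA4L (r = 0.919) and NCOA7 (r = 0.913). NFKBIA was most like PDZK1IP1 (r = 0.931), CXCL1 (r = 0.930) and IL6 (r = 0.919). ICAM1 was most like NUP210 (r = 0.955), LAPTM5 (r = 0.944) and RAMP1 (r = 0.942), and its r with TNFAIP2 was 0.912. TRAF1 (DECR1 (r = 0.878)) and TNFAIP3 (RNF128 (r = 0.878)) had lower best values, BIRC3 was most like SLC43A3 (r = 0.918), and ICAM1 and TRAF1 had an r of -0.05 with each other. Over the 17 groups without HS578T siNRP1#5, an alternative added after the data were seen, r was 0.838 for BIRC3 and SLC43A3, 0.922, 0.900 and 0.901 for ICAM1 and the 3 genes named, 0.873 for ICAM1 and TNFAIP2, 0.08 for ICAM1 and TRAF1 and 0.968 for NFKB2 and RELB. For NFKBIA it was 0.930 with PDZK1IP1, 0.924 with CXCL1 and 0.921 with IL6.

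Isoform percentages, which give the share of each gene's transcripts, showed 1 transcript in the lead for most members. ICAM1-201 held a mean of 92.1% to 95.5% in the 3 lines, TRAF1-202 75.3% to 83.3%, NFKBIA-201 65.4% to 66.8% and RELB-201 51.2% to 58.5%. NFKB1 was split among 25 annotated transcripts. Its largest shares went to NFKB1-215, annotated as a target of nonsense-mediated decay (17.5% to 21.7%), and NFKB1-222, a retained-intron transcript (18.3% to 22.4%), and no protein-coding transcript of NFKB1 averaged above 15.3% in a line. The gene-level values of NFKB1 sum these coding and non-coding transcripts, as RSEM divided the reads.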

How the data were processed

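Bulk poly(A) RNA-seq of 52 samples from 3 cell lines was analysed. Per the labels and methods, the authors trimmed reads with Trim Galore 0.6.5, aligned them with STAR 2.7.2b to GRCh38 and ran RSEM 1.3.3 with strand-specific settings. The deposited gene-level expected counts are estimates that need not be whole, and they were rounded here before testing. The deposited TPM values are scaled by the authors for transcript length and depth, and were used for levels. The deposited isoform percentages are RSEM's split of each gene. Transcript-level counts and TPM were not used here. Total counts of 25310443 to 72003442 per sample set the precision.

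Groups came from the sample labels. Counts were filtered with filterByExpr, scaled by TMM and tested two-sided with edgeR 4.0.16 (quasi-likelihood, robust, R 4.3.3), in 1 model per line with its 6 groups (20067, 18800 and 19661 genes in SUM159PT, MDA-MB-231 and HS578T) and in 1 model of all 52 samples for comparisons between lines (23416 genes). P-values were adjusted by Benjamini-Hochberg over all genes of a model, and a gene was called at 0.05. Errors after ± are standard errors on the log2 scale unless marked SD. The alternatives were DESeq2 1.42.0, limma 3.58.1 on log2(TPM + 0.1), a fold scale that understates changes of low genes, RLE scaling, no filter, the replicate number as a block, only the compared groups, and each sample left out.

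RNA of another line was estimated from marker genes with a mean of at least 20 CPM in that line's NT controls and at most 0.5 CPM in every NT control of the line examined. The counts that this share would bring, at the level of the other line's NT control of the same delivery, were subtracted as an alternative. A variant with markers chosen by their mean, and fits without the HS578T siNRP1#5 samples, were added after the data were seen.

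Same-numbered samples deviated together in SUM159PT siRNA (r = 0.132 to 0.370) and HS578T shRNA samples (0.201 to 0.610). This was read from the data and not from a stated shared batch. The main tests treated all samples as unpaired, and the replicate number entered only in the block alternative, over all groups.

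The members and lists were chosen with earlier results of these data known. The named genes were the 9 members, NRP1, RELA and REL, up to 2 listed genes per direction and comparison with the largest fold change, and the 3 genes most like each member (log2 CPM with a prior count of 2). Some of the latter are not reported here. Promoter sequences are RefSeq's on GRCh38.p14, searched for the NF-kB consensus on both strands. The fits were first tested on simulated counts with known changes.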

Additional observations from a re-analysis of the deposited data

Results flagged for a closer look

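The change with siNRP1#5 differed between the 3 lines by edgeR's F test for NFKB1 (adjusted p = 2.84e-06), BIRC3 (0.000136), TNFAIP2 (0.000280), ICAM1 (0.000328), NFKBIA (0.000367) and TNFAIP3 (0.000502), and the HS578T samples in it hold RNA of MDA-MB-231. After subtraction of reads of other lines, taken at their NT control levels, NFKB1, NFKBIA and BIRC3 lost the call (0.775, 0.751 and 0.496). With those samples left out, SUM159PT and MDA-MB-231 differed for TNFAIP3 alone among the 6 (log2 difference -1.87 ± 0.48, adjusted p = 0.0323), with 405 of 23400 genes called. For siNRP1#3 the 3 lines differed for BIRC3 (adjusted p = 0.0333), which rose in HS578T and fell in MDA-MB-231, and for TNFAIP3 (adjusted p = 0.0427). BIRC3 lost this call without any 1 replicate number (adjusted p = 0.0673 to 0.434) and after subtraction of reads of other lines (0.372), and TNFAIP3 lost it without replicates 1 or 2 (0.412 to 0.488) and after subtraction (0.0615). The rise of BIRC3 in HS578T was also lost without any 1 of the 6 samples and after subtraction.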

How the results depend on the processing

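Of 25 called results of members in the 12 knockdown comparisons (7 higher, 18 lower), subtraction of other lines' reads left 25 calls split as 2 higher and 23 lower. Of the 23, TNFAIP2, ICAM1 and TRAF1 in HS578T siNRP1#5 were lower because subtraction set their counts to 0. The total was 38 without a filter on low counts, 32 with the replicate block, 26 with DESeq2, 27 with limma and 23 with RLE scaling or with only the compared groups. Of 94 called gene results, 90 held their call with RLE scaling, 92 without a filter, 94 with the block, 91 with DESeq2 and 81 after subtraction. In fits of only the compared groups 50 of 61 held, with limma 36 of 40, and with samples left out 350 of 492, the other 142 losing the call without a change of sign.

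Counts of members moved by over 1.5 times as follows, against the counts in the text. Without the filter they were 2 (SUM159PT siNRP1#3), 8 (SUM159PT siNRP1#5), 1 (SUM159PT shNRP1#5), 3 (SUM159PT shNRP1#5 against shNRP1#3), 3 (SUM159PT siNRP1#5 change against shNRP1#5 change), 2 (HS578T siNRP1#3), 2 (HS578T shNRP1#5), 2 (HS578T shNRP1#5 against shNRP1#3), 2 (HS578T siNRP1#5 change against shNRP1#5 change), and, between lines, 4 (siNRP1#3) and 1 (shNRP1#5). With the replicate block they were 2 (SUM159PT siNRP1#3), 3 (SUM159PT shNRP1#5 against shNRP1#3) and 7 (HS578T siNRP1#5), and the block changed no other count by as much. Same-numbered samples did not all deviate together in SUM159PT shRNA (r down to -0.124), MDA-MB-231 shRNA (-0.160), MDA-MB-231 siRNA (-0.0182) or HS578T siRNA samples (-0.207). DESeq2 gave 2 for SUM159PT siNRP1#3, for SUM159PT shNRP1#5 against shNRP1#3 and for the HS578T siNRP1#5 change against shNRP1#5 change. limma gave 0 (SUM159PT siNRP1#3), 7 (SUM159PT siNRP1#5) and 0 (HS578T siNRP1#3). With only the compared groups the counts were 0 (SUM159PT siNRP1#3), 0 (SUM159PT siNRP1#5), 2 (SUM159PT siNRP1#5 against siNRP1#3), 3 (SUM159PT shNRP1#5 against shNRP1#3), 3 (MDA-MB-231 siNRP1#5), 2 (MDA-MB-231 shNRP1#3) and 7 (HS578T siNRP1#5). Subtraction gave 1 for SUM159PT shNRP1#5 against shNRP1#3 with either marker rule, 0 for HS578T siNRP1#3, 2 for the HS578T siNRP1#5 change against shNRP1#5 change with the first rule, and 0 for siNRP1#3 between lines. Without the HS578T siNRP1#5 samples, HS578T siNRP1#3 had 0 and the siNRP1#5 difference between lines 1. The cause was not tested, except that fewer samples enter the last 2 and the fits of 2 groups.

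With 1 sample left out at a time, SUM159PT counts ranged from 0 to 2 (siNRP1#3), 2 to 6 (siNRP1#5), 2 to 6 (shNT against siNT), 2 to 5 (siNRP1#5 against siNRP1#3) and 0 to 3 (siNRP1#5 change against shNRP1#5 change), and were 0 in every such fit for both shRNAs. In MDA-MB-231 they ranged from 2 to 3 (siNRP1#3), 3 to 7 (siNRP1#5), 1 to 4 (shNRP1#5), 4 to 7 (shNT against siNT), 5 to 8 (siNRP1#5 against siNRP1#3), 3 to 8 (shNRP1#5 against shNRP1#3) and 2 to 3 (siNRP1#5 change against shNRP1#5 change). In HS578T they were 0 in every fit for siNRP1#3 and both shRNAs, 2 to 4 (siNRP1#5), 2 to 3 (shNT against siNT), 0 to 4 (siNRP1#5 against siNRP1#3) and 0 to 1 (siNRP1#5 change against shNRP1#5 change). Between lines, without 1 replicate number, they ranged from 5 to 6 and 6 to 7 for controls against MDA-MB-231, 6 to 7 for HS578T against SUM159PT, 5 to 6 for siNRP1#5 and 0 to 2 for siNRP1#3.

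Among the called results, signs turned only under subtraction in HS578T siNRP1#5. Against siNT the log2 fold changes became -0.89 and -1.30 (NFKBIA, first and mean-based marker rule), -12.28 and -12.17 (TNFAIP2), -10.91 and -10.53 (ICAM1) and -1.55 (BIRC3, mean-based rule). Against siNRP1#3 they became -0.64 and -2.69 (BIRC3) and -10.33 and -7.90 (ICAM1), and the BIRC3 change against shNRP1#5 became -1.94 with the mean-based rule. Results not called as measured turned as well. They included NFKB1 in HS578T siNRP1#5 against siNT, from 0.61 to -0.76 and -1.04 (first and mean-based rule). ICAM1 in HS578T siNRP1#3 against siNT, positive as measured, turned to -0.57 and -2.63. Fitted folds of genes whose counts became 0 depend on the prior count and are no bound. Groups of 2 or 3 samples limit all comparisons, and BIRC3 and ICAM1 in HS578T are limited by low counts.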
